A study of Mus musculus with 12 samples.

Results

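The vascular endothelial growth factor (VEGF) family was followed through hypoxia and sorting as 9 genes of the 45706 in the expression table. These were the ligand genes Pgf, Vegfa, Vegfb and Vegfc, the receptor tyrosine kinase genes Flt1, Kdr and Flt4, and the co-receptor (neuropilin) genes Nrp1 and Nrp2. The list was taken by symbol and includes Pgf and Flt1 because both stood far above their normoxic level in hypoxic unsorted cells, so that the contrast of hypoxic with normoxic unsorted cells is described here without a test. All 9 passed the filter on low values (a mean of at least 0.1 TPM over the 12 libraries), as did 18909 genes in all, although Kdr passed narrowly. The fifth mammalian ligand gene of the family, Vegfd, is listed in the table under its older symbol Figf and is described beside the 9, outside their counts.

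VEGF ligands are secreted dimers that bind receptor tyrosine kinases, chiefly on endothelial cells, and so drive the growth and permeability of blood and lymphatic vessels. Vegfa signals mainly through Kdr (VEGFR2), whereas Flt1 (VEGFR1) binds Vegfa tightly, signals weakly and is also the receptor of Pgf and Vegfb. Vegfc and Vegfd act mainly through Flt4 (VEGFR3), the receptor of lymphatic endothelium, and the neuropilins hold ligands for the receptors and also serve the class 3 semaphorins. Vegfa is a classical target of hypoxia-inducible factors. In tumors of the liver, VEGF made by the tumor cells is generally thought of as acting on the vessels around them.

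BN1-Tie2-EGFP cells are a murine hepatoblastoma (HB) line derived from a tumor driven by β-catenin lacking 90 residues (B) and by the L30P mutant of NRF2 (N). All 4 groups carry these oncogenes, a Cdkn2a locus mutated with Crispr (labelled a knockout) and an EGFP reporter under the Tie2/Tek promoter, whose stable clones had been pooled. Each group had 3 libraries of monolayer cells. UN (unsorted, normoxic) cells grew in 21% oxygen, and UH (unsorted, hypoxic) cells spent 2 days at 1% oxygen. SN (sorted, normoxic) cells came from a sort for the brightest EGFP after such a hypoxic exposure, followed by roughly 10 days of growth in normoxia. SH (sorted, hypoxic) cells were the same population after a further 2 days at 1% oxygen. Sorted and unsorted groups thus differ by the earlier hypoxia, the sort and the growth after it, which cannot be told apart here. The study calls its replicates independent without saying whether each sorted replicate came from a sort of its own, and p-values measure the spread between these samples.

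Expression is given as TPM (transcripts per 1000000), a value corrected for transcript length, so that levels of different genes within a library can be compared. The deposited values keep no read depth, and precision is the spread among 3 libraries. The labelled cell type was checked by its markers. Of 15 hepatoblast and hepatocyte markers, 11 averaged at least 1 TPM in UN cells, 9 in UH, 7 in SN and 8 in SH cells. However, Alb averaged 2.51 TPM in UN and 0.323 TPM in SH cells, and Ttr did not pass 0.474 TPM in any library. The list moved both ways between UN and SN means. Dlk1 (58.7 to 0.389 TPM) and Krt8 (65.5 to 4.78 TPM) were lower in SN cells. Afp (1.83 to 9.20 TPM), Krt18 (93.4 to 126 TPM) and Foxa1 (7.27 to 9.10 TPM) were higher. The 15 markers summed to 149 to 351 TPM in UN, 205 to 237 TPM in UH, 151.5 to 197 TPM in SN and 132 to 212 TPM in SH cells. Of 22 endothelial markers, 3 averaged at least 1 TPM in UN cells, 4 in UH, 6 in SN and 7 in SH cells. Their sum did not follow that count, at 33.0 to 79.0 TPM in UN, 59.5 to 67.5 TPM in UH, 32.5 to 34.3 TPM in SN and 29.0 to 44.1 TPM in SH cells, and the abundant marker Eng averaged 19.6 TPM in UN and 1.14 TPM in SN cells. Of the 6 that averaged at least 1 TPM in SN cells, Egfl7 was also lower there than in UN cells (1.91 against 10.4 TPM). Esam (2.09 against 0.800 TPM), Plvap (1.34 against 0.156 TPM) and Ecscr (23.7 against 16.9 TPM) were higher, as was Tek. The defining genes Cdh5 and Tie1 did not pass 0.0967 TPM and 0.0222 TPM in any library. Tek, the gene behind the sort, averaged 0.133 TPM in UN and 2.49 TPM in SN cells. UN replicate 1 stood apart, since its 11 fibroblast and stellate markers (collagens, Acta2, Dcn, Pdgfra and others) summed to 5160 TPM against 1324 and 1176 TPM in UN replicates 2 and 3. The same sum was 4852 to 7134 TPM in UH, 201 to 212 TPM in SN and 56.7 to 77.8 TPM in SH cells. UN replicate 1 thus lay within the UH range, and both sorted groups lay below both unsorted ones. Collagen means were higher in UH than in UN cells (Col1a1 3051 against 704 TPM, Col3a1 1747 against 785 TPM, Col1a2 883 against 312 TPM). Other abundant markers were lower (Acta2 305 against 393 TPM, Dcn 53.8 against 172 TPM, Pdgfra 28.45 against 141.5 TPM, Pdgfrb 15.2 against 44.7 TPM). The 8 macrophage and leukocyte markers, of which 2 averaged at least 1 TPM in each group, summed to 4.46 to 7.89 TPM in UN, 20.3 to 21.4 TPM in UH, 9.35 to 13.8 TPM in SN and 58.6 to 62.5 TPM in SH cells. Cd68 made up most of this in SH cells (53.95 TPM), and the pan-leukocyte gene Ptprc did not pass 0.121 TPM in any library. In bulk RNA, fewer cells of a type and less RNA per cell cannot be told apart.

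The sequence before the start of each gene was examined for the core letters of the hypoxia response element, ACGTG, and its common variant GCGTG, on both strands. RefSeq (GRCm38.p6) windows of 250 bases were found for all 9 genes, 11 windows in all because Pgf and Vegfa have a second start. Either motif was present in 7 of the 11 windows and in 38.6% of all 32851 windows of that length (ACGTG in 16.6%, GCGTG in 28.2%). The windows of 3 genes with different behavior under hypoxia follow, 5′ to 3′ toward the gene, with matches in capitals. They are Flt1, with 1 match at 184 bases before the start (chr5:147726012-147726261, minus strand), Vegfa at its first start, with no match (chr17:46032378-46032627, minus strand), and Vegfb, with matches at 237 and 81 bases before the start (chr19:6987652-6987901, minus strand).
Flt1: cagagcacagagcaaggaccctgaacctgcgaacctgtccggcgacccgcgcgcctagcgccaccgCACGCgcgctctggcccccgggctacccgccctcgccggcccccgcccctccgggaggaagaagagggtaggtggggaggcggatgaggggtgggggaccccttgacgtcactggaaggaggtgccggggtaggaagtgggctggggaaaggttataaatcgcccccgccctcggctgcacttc
Vegfa: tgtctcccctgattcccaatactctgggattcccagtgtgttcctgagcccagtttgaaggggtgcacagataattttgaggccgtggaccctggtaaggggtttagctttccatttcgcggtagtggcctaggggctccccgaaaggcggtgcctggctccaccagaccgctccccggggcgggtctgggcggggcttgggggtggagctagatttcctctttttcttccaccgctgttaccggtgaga
Vegfb: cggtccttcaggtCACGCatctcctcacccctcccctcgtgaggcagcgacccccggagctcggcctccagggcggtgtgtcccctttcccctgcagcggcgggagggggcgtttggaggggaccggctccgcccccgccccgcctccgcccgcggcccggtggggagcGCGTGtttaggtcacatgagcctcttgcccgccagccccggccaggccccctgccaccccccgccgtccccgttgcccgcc
In Pgf the single match of the first window lay 124 bases before the start, shown here with the 12 bases on each side (chr12:85177421-85177449, minus strand), within an exon of another transcript in GENCODE M21.
Pgf: gccctgcggggtCACGCgcactcaggtct
CACGC in these lines is GCGTG read on the other strand. The second Vegfa start, inside the gene, had GCGTG at 218 and ACGTG at 211 bases before it, and it was the sole window of the 11 with ACGTG. Kdr and Nrp2 had 2 GCGTG matches each and Nrp1 had 1, while Vegfc and Flt4 had none. A match is a string of letters and no evidence of a bound site, and these windows are short.

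Pgf (placenta growth factor, ENSMUSG00000004791, chromosome 12, 85166635 to 85177790, minus strand, GRCm38) had the widest fold span of the family. It was measured at 0.547, 0.400 and 0.482 TPM in UN cells and at 178, 172 and 152 TPM in UH cells. The means differed 351-fold, with a log2 difference of 6.83 (SE 0.242) on the log2(TPM + 1) scale, which understates the change of a gene with so low a base. In sorted cells the same gene was at 0.920, 0.595 and 0.465 TPM in normoxia and at 4.39, 4.09 and 1.61 TPM in hypoxia. The UN and SN libraries overlapped (log2 difference 0.16, SE 0.242). Every SH library lay above every SN library, and Pgf rose 5.10-fold in the means (log2 fold change 1.33, SE 0.242, adjusted p = 0.001, limma). SH replicate 3 was the lowest of its group, and without it the value was 1.67 (adjusted p = 2.06e-05). Even so, hypoxic sorted cells held a mean of 3.37 ± 1.53 TPM (SD, n = 3) against 167 ± 13.7 TPM in hypoxic unsorted cells, so that the UH mean was 49.7 times the SH mean. The response in sorted cells was smaller than that in unsorted cells by 5.50 log2 units (SE 0.342), a value given as a description because Pgf was selected on the UH libraries. The fibroblast and stellate sum was higher in UH cells than in UN replicates 2 and 3, but UN replicate 1 lay within the UH range. Its collagens were higher in UH cells, while Acta2, Dcn, Pdgfra and Pdgfrb were lower. The part of this sum in the result was not tested. In UN replicate 1 that sum was 5160 TPM and Pgf was 0.547 TPM.

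Vegfa (ENSMUSG00000023951, chromosome 17, 46016993 to 46032369, minus strand), the principal angiogenic ligand, was the most abundant of the 4 ligand genes in hypoxia and differed little between sorted and unsorted cells. It was measured at 100.2, 99.6 and 109 TPM in UN, at 716, 939.5 and 1024 TPM in UH, at 83.3, 90.1 and 147 TPM in SN and at 930.1, 943 and 660.3 TPM in SH cells. The hypoxic libraries were all above the normoxic ones, and neither the normoxic pair of groups nor the hypoxic pair was separated. Vegfa rose 7.91-fold in SH vs SN (log2 fold change 3.00, SE 0.213, adjusted p = 1.37e-06), beside an 8.69-fold higher mean in UH than in UN cells (log2 difference 3.09, SE 0.213). The difference between these responses was −0.09 log2 units (SE 0.301). Sorted and unsorted cells differed by 0.01 log2 units in normoxia (SE 0.213, adjusted p = 0.991) and by −0.08 in hypoxia (SE 0.213, adjusted p = 0.782). The sign of both small values turned when some single libraries were left out.

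Vegfb (ENSMUSG00000024962, chromosome 19, 6982473 to 6987651, minus strand), a ligand of Flt1 tied mainly to heart and lipid biology, varied least of the ligand genes. Its means were 85.1 ± 7.15 TPM in UN, 86.2 ± 2.43 TPM in UH, 92.7 ± 6.56 TPM in SN and 68.4 ± 5.09 TPM in SH cells (SD, n = 3). The SH libraries (73.4, 68.6 and 63.2 TPM) all lay below the SN libraries (85.1, 96.3 and 96.6 TPM). That difference passed the adjusted p but not the 2-fold threshold (log2 fold change −0.43, SE 0.0941, adjusted p = 0.0032). UH and UN cells differed by 0.02 log2 units (SE 0.0941), and by 0.37 under median-of-ratios scaling.

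Vegfc (ENSMUSG00000031520, chromosome 8, 54077606 to 54187096, plus strand), the main lymphangiogenic ligand, was higher in sorted than in unsorted normoxic cells and stood at its highest in SH cells. It was at 16.5, 8.54 and 9.05 TPM in UN and at 29.8, 28.3 and 30.9 TPM in SN cells, with no overlap. Vegfc was thus higher in SN than in UN cells by a log2 fold change of 1.37 (SE 0.192, adjusted p = 0.000235), and the highest UN library was replicate 1. Without that library the value was 1.65 (adjusted p = 1.09e-06). In hypoxia the gene reached 30.8, 31.3 and 36.5 TPM in UH cells and 40.4, 46.0 and 43.6 TPM in SH cells. The order of the means was therefore UN, SN, UH and SH, and the SN and UH libraries overlapped. SH vs SN was below the 2-fold threshold (log2 fold change 0.53, SE 0.192, adjusted p = 0.0442), as was SH vs UH (0.39, SE 0.192, adjusted p = 0.123), while UH and UN cells differed by 1.51 log2 units (SE 0.192; 1.79 without UN replicate 1).

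Figf (Vegfd, ENSMUSG00000031380, chromosome X, 164373378 to 164402650, plus strand), the other ligand of Flt4, behaved differently from Vegfc. It was at 29.2, 25.3 and 25.2 TPM in UN, 43.1, 55.7 and 63.8 TPM in UH, 11.3, 15.9 and 20.5 TPM in SN and 81.9, 80.5 and 89.2 TPM in SH cells. No pair of groups overlapped, and the order of the means was SN, UN, UH and SH. Figf rose 5.27-fold in SH vs SN (log2 fold change 2.36, SE 0.189, adjusted p = 3.11e-06), against a log2 fold change of 0.99 in UH vs UN (SE 0.189, adjusted p = 0.00112), which lay just under the fold threshold. That call depended on the setting, since the value passed 2-fold under median-of-ratios scaling (1.33, adjusted p = 0.000112), quantile normalization (1.302, adjusted p = 9.11e-05) and a pseudocount of 0.1 (1.01, adjusted p = 0.00118), and without UN replicate 1 (1.06, adjusted p = 0.00224) or UH replicate 1 (1.14, adjusted p = 0.000828). The responses differed by 1.38 log2 units (SE 0.267, adjusted p = 0.00438), larger in sorted cells, and by 1.04 under median-of-ratios scaling (adjusted p = 0.0145). Sorted cells held less Figf than unsorted cells in normoxia (−0.74, SE 0.189, adjusted p = 0.0102) and more in hypoxia (0.64, SE 0.189, adjusted p = 0.0179), neither past 2-fold.

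**Figure D1:**
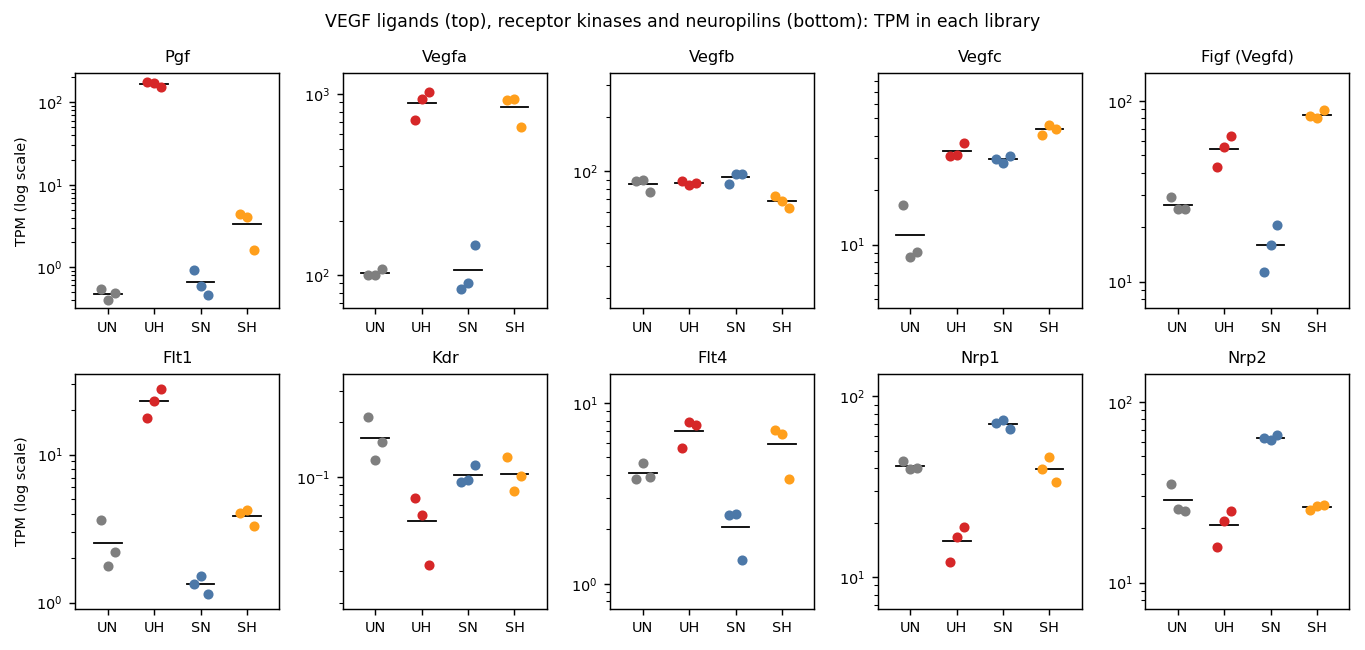
TPM of each gene in each of the 12 libraries (points, log scale) by group, with black lines at the group means; every panel has its own axis. Pgf stands at 152 to 178 TPM in UH and at 1.61 to 4.39 TPM in SH libraries, while Vegfa is at 660.3 TPM or more in both.

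Set side by side as a pool, the 4 ligand genes summed to 200 ± 5.47 TPM in UN, 1179 ± 149 TPM in UH, 230 ± 39.9 TPM in SN and 960 ± 165 TPM in SH cells (SD, n = 3). Vegfa and Vegfb made up most of the pool in normoxia, at 51.5% and 42.6% in UN and at 45.7% and 40.9% in SN cells. This pool leaves out Figf. In a pool of 5 ligand genes, Figf made up 11.7% in UN, 4.37% in UH, 6.40% in SN and 8.23% in SH cells. In the pool of 4, to which all the other shares given here refer, Vegfb made up 7.41% in UH and 7.23% in SH cells. Pgf made up 11.7% to 17.6% of the pool in UH libraries and 0.210% to 0.419% in SH libraries, and in the latter Vegfa reached 85.9% to 88.8%. Vegfc supplied 13.1% in SN cells, its highest share, against 5.66% in UN, 2.80% in UH and 4.62% in SH cells.

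**Figure D2:**
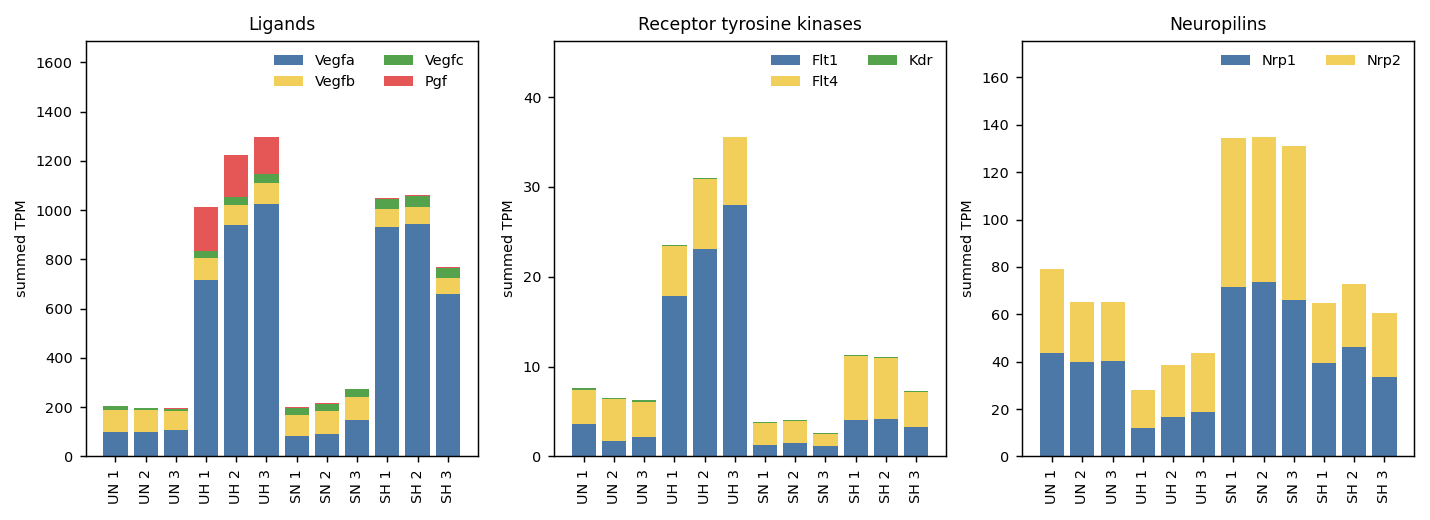
Summed TPM in each library, stacked by gene, for the 4 ligand genes, the 3 receptor tyrosine kinase genes and the 2 neuropilin genes, each on its own axis from 0. Pgf is a visible layer of the ligand bar in the UH libraries and a thin one elsewhere, and Flt1 makes up most of the receptor bar in UH libraries.

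Flt1 (ENSMUSG00000029648, chromosome 5, 147561604 to 147726011, minus strand), the receptor of Pgf, Vegfb and Vegfa, was the other gene chosen for its level in UH cells. It was at 3.60, 1.76 and 2.19 TPM in UN and at 17.8, 23.1 and 28.0 TPM in UH cells. The means differed 9.12-fold, with a log2 difference of 2.78 (SE 0.212; 2.99 without UN replicate 1, which held the highest UN value). In sorted cells it was at 1.33, 1.50 and 1.15 TPM in normoxia and at 4.06, 4.22 and 3.31 TPM in hypoxia. All SH libraries exceeded all SN libraries, and Flt1 rose 2.91-fold in the means (log2 fold change 1.06, SE 0.212, adjusted p = 0.0019), close to the fold threshold. Under quantile normalization the value was 0.78 (adjusted p = 0.00767), and the call was lost. In normoxia the SN libraries lay below the UN libraries (log2 difference −0.56, SE 0.212; −0.35 without UN replicate 1). The UH mean was 5.94 times the SH mean, and the 2 responses differed by −1.72 log2 units (SE 0.300). As said for Pgf, the fibroblast and stellate sum was higher in UH cells than in UN replicates 2 and 3, through its collagens. Within UN cells this sum was highest in replicate 1, the library with the highest Flt1. Its part in the result was not tested. The table is at gene level, so soluble and membrane forms of Flt1 were not separated.

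Kdr (ENSMUSG00000062960, chromosome 5, 75932827 to 75978458, minus strand), the main signaling receptor of Vegfa and a defining endothelial gene, was near 0 throughout. Its highest value in any library was 0.213 TPM (UN replicate 1) and its lowest was 0.0325 TPM (UH replicate 3). SH and SN cells differed by 0.00 log2 units (SE 0.0756, adjusted p = 0.991). At such levels the added 1 of the log scale leaves little room for a difference, and no direction was read from it.

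Flt4 (ENSMUSG00000020357, chromosome 11, 49609263 to 49652739, plus strand), the receptor of Vegfc and Vegfd, was low but present. It was at 3.81, 4.64 and 3.89 TPM in UN, 5.61, 7.87 and 7.59 TPM in UH, 2.41, 2.43 and 1.35 TPM in SN and 7.14, 6.75 and 3.82 TPM in SH cells. Replicate 3 was the lowest library of both sorted groups. Flt4 rose 2.86-fold in SH vs SN (log2 fold change 1.16, SE 0.230, adjusted p = 0.00183). The call was lost without SN replicate 3 (0.98, adjusted p = 0.00971) and under quantile normalization (0.94, adjusted p = 0.00289), each time through the fold threshold. In normoxia, Flt4 was lower in sorted cells without passing 2-fold (log2 fold change −0.76, SE 0.230, adjusted p = 0.024), and the hypoxic groups overlapped (−0.24, SE 0.230, adjusted p = 0.424). UH and UN cells differed by 0.64 log2 units (SE 0.230).

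The receptor pool was therefore Flt4 and Flt1 with almost no Kdr. Its sum was 6.80 ± 0.731 TPM in UN, 30.04 ± 6.10 TPM in UH, 3.49 ± 0.769 TPM in SN and 9.87 ± 2.29 TPM in SH cells (SD, n = 3). Flt1 made up 76.3% of it in UH cells and 36.4% to 39.9% in the other groups, and Kdr did not exceed 4.43% in any library.

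Nrp1 (ENSMUSG00000025810, chromosome 8, 128358604 to 128503363, plus strand), co-receptor of Vegfa and of Sema3a, was higher in sorted than in unsorted cells under hypoxia and had its lowest levels in UH cells. It was at 43.8, 39.7 and 40.2 TPM in UN, 12.1, 16.6 and 18.9 TPM in UH, 71.7, 73.8 and 65.9 TPM in SN and 39.6, 46.3 and 33.5 TPM in SH cells. The SN libraries were the highest and the UH libraries the lowest, while the UN and SH libraries overlapped. The level in hypoxia was 2.50-fold higher in sorted cells (SH vs UH, log2 fold change 1.28, SE 0.155, adjusted p = 5.6e-05). Both hypoxic groups were below their normoxic group, by 1.34 log2 units in unsorted cells (−1.34, SE 0.155, no test; −1.03 under quantile normalization and at the 2-fold threshold itself under median-of-ratios scaling) and with a log2 fold change of −0.82 in SH vs SN (SE 0.155, adjusted p = 0.00134), which did not pass 2-fold. SN vs UN gave 0.76 (SE 0.155, adjusted p = 0.00279), also under 2-fold.

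Nrp2 (ENSMUSG00000025969, chromosome 1, 62703285 to 62818695, plus strand), co-receptor of Vegfc and of Sema3f, stood apart in SN cells. It was at 62.8, 61.2 and 65.2 TPM in SN and at 25.0, 26.4 and 27.0 TPM in SH cells, and it was lower after hypoxia by a factor of 2.41 (log2 fold change −1.24, SE 0.163, adjusted p = 0.00011). In unsorted cells it was at 35.2, 25.5 and 25.0 TPM in normoxia and at 15.7, 22.0 and 24.8 TPM in hypoxia, a log2 difference of −0.44 (SE 0.163; −0.29 without UN replicate 1). Median-of-ratios scaling brought this difference to −0.10. SN exceeded UN in every library (log2 fold change 1.13, SE 0.163, adjusted p = 0.000279; 1.29 without UN replicate 1, adjusted p = 0.000102). SH and UH libraries did not overlap either, but the difference was small (0.34, SE 0.163, adjusted p = 0.119). As a pair, the neuropilin genes summed to 134 ± 2.15 TPM in SN cells, against 69.8 ± 7.92 TPM in UN, 66.0 ± 6.18 TPM in SH and 36.8 ± 8.11 TPM in UH cells (SD, n = 3).

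Read across the family, SH vs SN is a comparison that the rule for the genes did not name, although the genes were listed with earlier results of these data known. In it 4 of 9 genes were called higher (Pgf, Vegfa, Flt1 and Flt4) and 1 lower (Nrp2), where 7.47% of all genes tested were called higher and 5% lower. The libraries of the 2 groups did not overlap for 8 of 9 genes, against 56.8% of all genes. Pgf and Flt1 were listed for their response to hypoxia in unsorted cells. Of the other 7 genes, 2 were called higher and 1 lower, and 6 did not overlap. The macrophage and leukocyte sum was also higher in SH than in SN cells and the fibroblast and stellate sum lower, and their part in these results was not tested. In SN vs UN, 2 of 7 genes tested were called higher (Vegfc and Nrp2) and none lower, beside 3.2% and 7.57% of all genes, and 5 of 7 did not overlap, against 49% of all genes. In SH vs UH, 1 of 7 was called higher (Nrp1) and none lower, beside 7.65% and 5.35% of all genes, and 5 of 7 did not overlap, against 51.7%. With 7 genes, 1 call is near the share of all genes, and the share without overlap is not far from it in either comparison of sorted with unsorted cells. In both of these comparisons the genes without overlap include Kdr, which was near 0 in every library. UH vs UN met the same thresholds for 4 genes in the higher direction (Pgf, Vegfa, Vegfc and Flt1) and 1 in the lower (Nrp1), beside 5.46% and 11.8% of all genes, with 8 of 9 not overlapping beside 51.1%. Nothing is read from those counts, since the choice rests on that contrast. The comparisons share libraries, so that UN, UH, SN and SH cells each enter more than 1 of them.

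**Figure D3:**
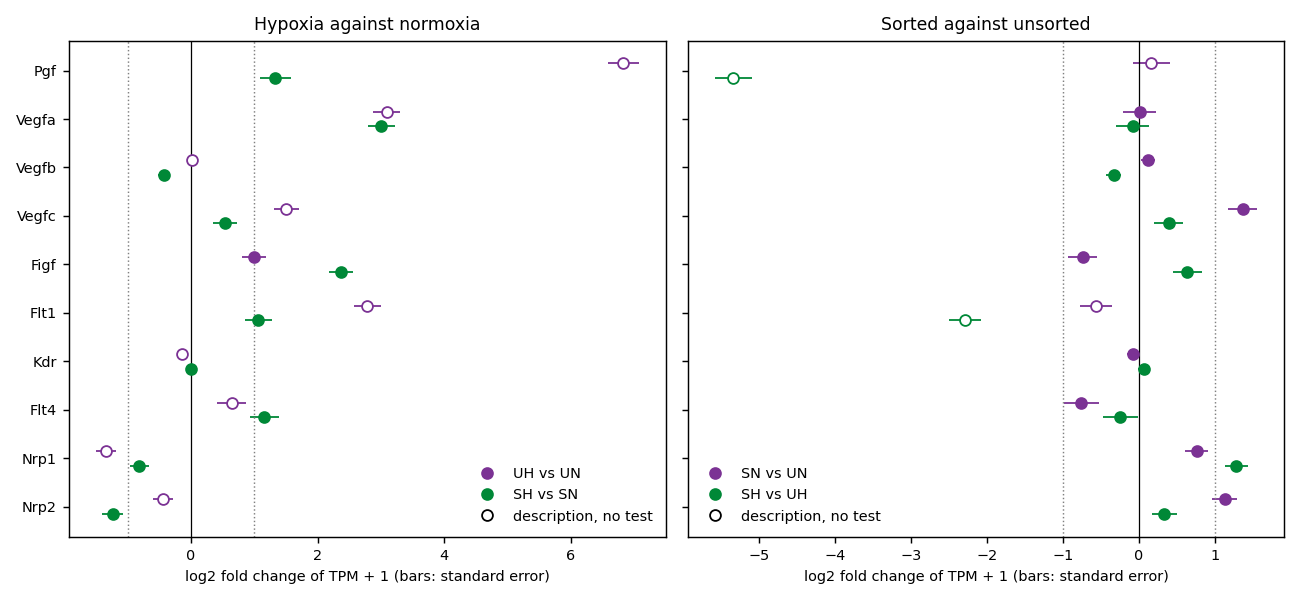
Log2 fold change of TPM + 1 with its standard error, for hypoxia against normoxia (left) and sorted against unsorted cells (right); open points were not tested, and dotted lines mark 2-fold. Vegfa has nearly equal values in the unsorted (3.09) and sorted (3.00) cells, while Pgf has 6.83 and 1.33.

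The other genes of the pathway were counted by lists. Of 53 tested genes that carry the signal of VEGF receptors inside the cell, SH vs SN gave 4 higher calls and 1 lower, with 5 and 3 in UH vs UN, 2 and 6 in SN vs UN, and 3 and 4 in SH vs UH. Median log2 fold changes were −0.19, −0.28, −0.03 and −0.03 in that order, against 0.03, −0.19, −0.06 and 0.17 over all genes tested. Over all genes, the shares called higher and lower were 7.47% and 5% in SH vs SN and 5.46% and 11.8% in UH vs UN. They were 3.2% and 7.57% in SN vs UN and 7.65% and 5.35% in SH vs UH. No test was made of a difference between these shares and the list. Its largest called change in SH vs SN was that of Map2k1, the MEK1 kinase of the MAPK cascade, from 67.8 to 222 TPM (log2 fold change 1.70, adjusted p = 1.81e-07).

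Of 12 semaphorins and plexins, which share the neuropilins with VEGF, SH vs SN gave 2 higher calls and 1 lower. Plxna4, a plexin that signals for neuropilin-bound semaphorins, rose from 0.81 to 5.53 TPM (log2 fold change 1.85, adjusted p = 8.83e-05). The counts were 2 and 1 in UH vs UN, 1 and 3 in SN vs UN, and 0 and 1 in SH vs UH. Over all genes, the shares called higher and lower were 7.47% and 5% in SH vs SN and 5.46% and 11.8% in UH vs UN. They were 3.2% and 7.57% in SN vs UN and 7.65% and 5.35% in SH vs UH. Whether the list differed from these shares was not tested.

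Genes that process ligands or release them from the matrix were counted next. Of 18 tested, SN vs UN had 4 higher and 8 lower and SH vs UH had 4 and 7, with medians of −0.76 and −0.40, whereas SH vs SN had 2 and 2 and UH vs UN had 3 and 2 (medians 0.14 and −0.01). Over all genes tested, the shares called higher and lower were 3.2% and 7.57% for SN vs UN, 7.65% and 5.35% for SH vs UH, 7.47% and 5% for SH vs SN, and 5.46% and 11.8% for UH vs UN, and whether the list differed from these was not tested. Mmp9, a gelatinase known to free Vegfa from the matrix, changed most in SH vs SN and fell from 119 to 18.9 TPM (log2 fold change −2.60, adjusted p = 1.67e-05). Ccbe1, a cofactor in the proteolytic activation of Vegfc and named here after its values were seen, was higher in SN than in UN cells (50.9 against 17.0 TPM, log2 fold change 1.53, adjusted p = 0.000308). It was among the 4 list genes called higher there, against 8 called lower. The latter included Pcsk5 (0.00601 against 2.58 TPM), Pcsk6 (5.78 against 156 TPM) and Adamts14 (1.26 against 3.8 TPM). Under the fold threshold, Adamts3 was lower (log2 fold change −0.962) and Furin higher (0.678). Activation of the Vegfc protein was not measured. In the same list the fibroblast and stellate sum moved with the comparison of sorted with unsorted cells (4852 to 7134 TPM in UH, 56.7 to 77.8 TPM in SH), and its part in the result was not tested.

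Among 16 tested transcription factors and regulators known to act on VEGF ligand genes, SH vs SN gave 1 higher and 1 lower call, with 1 and 0 in UH vs UN, 2 and 1 in SN vs UN, and 3 and 2 in SH vs UH. The shares of all genes were 7.47% and 5%, 5.46% and 11.8%, 3.2% and 7.57%, and 7.65% and 5.35% in that order. List medians were −0.23, −0.30, 0.02 and −0.01, against 0.03, −0.19, −0.06 and 0.17 over all genes. Whether the list differed was not tested. Vhl, which marks hypoxia-inducible factors for degradation, rose most in SH vs SN, from 10.9 to 34.9 TPM (log2 fold change 1.53, adjusted p = 0.000137). Among mRNAs of hypoxia-inducible factor subunits, named after their values were seen, those of 2 alpha subunits were lower in sorted than in unsorted hypoxic cells, Hif1a at 46.6 against 103 TPM (log2 fold change −1.09, adjusted p = 0.00228) and Epas1 at 0.669 against 3.42 TPM (−1.40, adjusted p = 0.00115). Arnt, their partner subunit, was at 42.0 and 43.2 TPM (−0.01, SE 0.198, adjusted p = 0.972). Both alpha subunits were already lower in sorted cells in normoxia. In SN vs UN, Epas1 was at 1.10 against 5.83 TPM (−1.65, adjusted p = 0.000502). Hif1a was at 66.0 against 118 TPM there (−0.83, adjusted p = 0.0138, under 2-fold). These factors are controlled largely at the protein level, which was not measured. Of 9 proteins that bind Vegfa mRNA, 1 was called lower in SH vs SN and 3 in UH vs UN, beside 5% and 11.8% of all genes. None were called higher, and none were called in either comparison of sorted with unsorted cells. List medians were −0.65 in SH vs SN and −0.76 in UH vs UN, against 0.03 and −0.19 over all genes, and whether the list differed was not tested. Zfp36 (tristetraprolin), which destabilizes mRNAs with AU-rich elements, fell most in SH vs SN, from 208 to 40.4 TPM (log2 fold change −2.22, adjusted p = 8.12e-05). The lower calls in UH vs UN were Zfp36 (−2.14), Elavl1 (−1.12) and Hnrnpl (−1.01), the last 2 named after their values were seen. In SH vs SN, Elavl1 (−0.77) and Hnrnpl (−0.66) were under 2-fold.

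As a reference for the strength of the hypoxic response, 12 widely used hypoxia genes were counted. Of these, 11 were called higher in unsorted and 11 in sorted cells under hypoxia, beside 5.46% and 7.47% of all genes. Their medians were 3.34 and 2.85 log2 units. Ero1l, an oxidase of disulfide bond formation, rose most in SH vs SN (15.2 to 751 TPM, log2 fold change 5.50, adjusted p = 1.82e-08). In SN vs UN 1 was lower, and in SH vs UH 3 were lower, with a median of −0.27, beside 7.57% and 5.35% of all genes called lower. The values of Vegfa (3.09 and 3.00) lay near the hypoxia medians of 3.34 and 2.85, and that of Pgf in SH vs SN (1.33) lay below. The added 1 shrinks the Pgf value, since its SN mean was 0.660 TPM. With a pseudocount of 0.1, Pgf in SH vs SN was 2.11 (adjusted p = 0.000419, limma).

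The genes whose pattern over the 12 libraries was most like that of a member were found by the smallest root mean square (RMS) difference in centered log2(TPM + 1). For Pgf these were Tnfrsf9 (RMS 0.673), Cacna1h (0.818) and Adm2 (0.849), all with a high UH mean (352, 61.3 and 47.2 TPM) and a much lower SH mean (8.95, 5.73 and 0.615 TPM). For Flt1 they were Fam78a (0.226), Pgbd1 (0.251) and Col5a3 (0.278), with UH means of 8.26, 7.60 and 11.3 TPM and SH means of 0.875, 0.724 and 2.72 TPM. Vegfa was closest to Gys1 (0.237), Ciart (0.240) and Isg20 (0.240), which were high in both hypoxic groups, Gys1 for example at 428 TPM in UH and 358 TPM in SH cells. Tnfrsf9 encodes a costimulatory receptor of the TNF receptor family, Adm2 a peptide related to adrenomedullin, Col5a3 a collagen chain and Gys1 glycogen synthase. RMS differences grow with the span of a gene, so they are not compared between members. The nearest genes were chosen for likeness over these same libraries, so their levels by group follow from that choice.

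**Figure D4:**
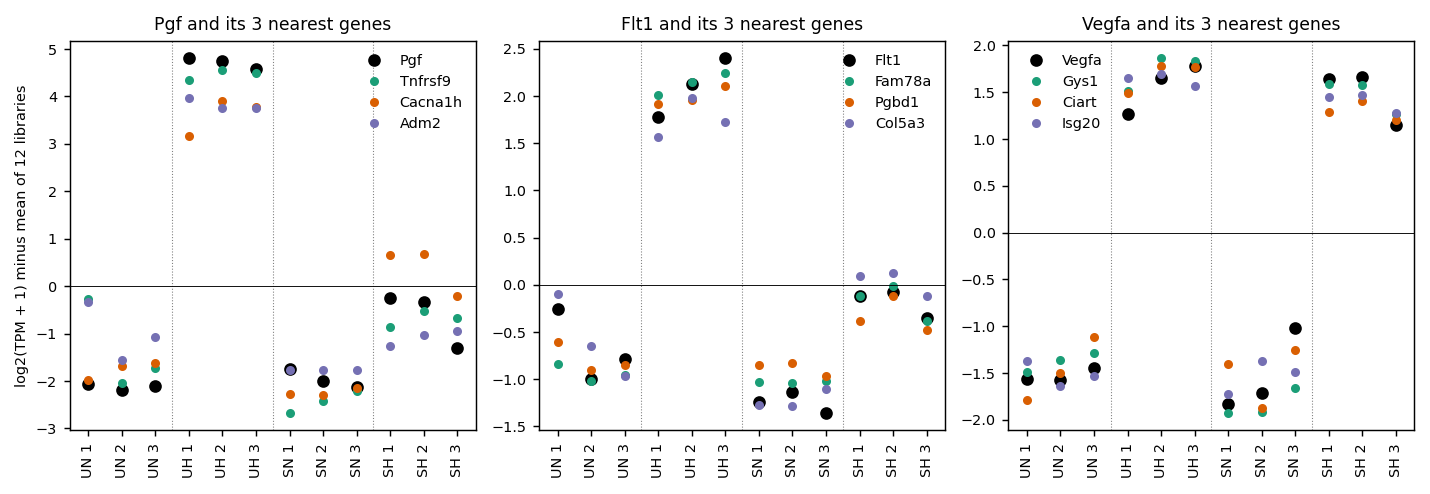
Log2(TPM + 1) minus each gene's own mean over 12 libraries, for Pgf, Flt1 and Vegfa (black) and the 3 genes nearest to each (colors). The Pgf and Flt1 panels are high in UH libraries and near or below the mean in most SH libraries, whereas the Vegfa panel is high in both hypoxic groups.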

How the data were processed

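RNA-seq of 12 samples of BN1-Tie2-EGFP cells (UN, UH, SN and SH, 3 each) was available as a table of TPM per gene and library that the authors deposited from the Salmon step of nf-core/rnaseq 3.12.0, with mm10 per the labels; the annotation release is not given in the sources used here. TPM sums to 1000000 in each library and keeps no depth, so no counting interval was possible and a change is relative to all other transcripts. Coordinates came from GENCODE M21 (GRCm38), which held 45143 (98.8%) of the gene identifiers.

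Values were analysed as log2(TPM + 1) for the 18909 genes with a mean of at least 0.1 TPM. A model with 4 group means was fitted to all 12 libraries with limma 3.58.1 in R 4.3.3 (empirical Bayes with a trend, 8 residual degrees of freedom), which replaced the count test of the study because no counts were used here. A call required a fold above 2 and an adjusted p (Benjamini-Hochberg over all 18909 genes) under 0.05, the thresholds of the study. Values before "±" are means with the SD, and folds of means are ratios of mean TPM. UH vs UN was not tested for the 9 genes, nor was any contrast with UN or UH for Pgf and Flt1.

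Members and lists were chosen with earlier results of these data known. The genes named were the 9, Figf, the 3 nearest patterns of Pgf, Flt1 and Vegfa, and the called gene of each list that changed most in SH vs SN, besides those said to be named after their values were seen. The pipeline was tested on simulated data. Alternatives were a pseudocount of 0.1, no filter and a filter at 1 TPM, median-of-ratios scaling, quantile normalization, a fit of the 2 groups alone, moderation without a trend, a replicate block and leaving out each library. Promoter windows were RefSeq GRCm38.p6, read with Python 3.11.15. Isoforms and proteins were not analysed here.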

Additional observations from a re-analysis of the deposited data

Results flagged for a closer look

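Figf (Vegfd) was lower in sorted than in unsorted cells in normoxia (log2 fold change −0.74 in SN vs UN) and higher in hypoxia (0.64 in SH vs UH), with every library of each group on the stated side. The difference between these sorting effects was 1.38 log2 units (SE 0.267, adjusted p = 0.00438, limma). Kdr likewise had opposite signs in the same comparisons, −0.079 with sorting in normoxia and 0.063 with sorting in hypoxia, without overlap of libraries, but the difference was not tested and every library held 0.213 TPM or less. Groups of 3 libraries were not screened for single outlying values.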

How the results depend on the processing

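The count of genes called in SH vs SN was 5 and fell to 3 under quantile normalization, where Flt1 and Flt4 were past the adjusted p but under 2-fold. It was 4 to 5 when each library was left out (4 without SN replicate 3, through Flt4). In SN vs UN the count was 2, and 3 with a pseudocount of 0.1, where Flt4 reached −1.002 (adjusted p = 0.0164), and in SH vs UH it was 1 throughout. Figf in UH vs UN, 0.99 and not called, passed 2-fold under 5 settings (1.01 to 1.33), and its difference between the responses was 1.04 to 1.57 under the settings that fit all groups. Signs that turned belonged to differences near 0. Under quantile normalization these were Kdr in SH vs SN (−0.159), SN vs UN (0.027) and SH vs UH (−0.033) and Vegfa in SN vs UN (−0.020) and SH vs UH (0.051). Leaving out libraries gave −0.013 to 0.017 for Kdr in SH vs SN, −0.243 to 0.163 for Vegfa in SN vs UN and −0.235 to 0.085 for Vegfa in SH vs UH; the cause was not tested. The replicate block gave 5, 2 and 1 calls, the same as without it, and changed no call. Same-numbered libraries had correlations of deviations from −0.0631 to 0.141, so the numbers were not taken as pairs. At a filter of 1 TPM Kdr dropped out. Median-of-ratios scaling moved the median of all genes in UH vs UN from −0.19 to 0.00 and in SH vs UH from 0.17 to 0.04, and the split of higher and lower calls from 1032 and 2222 to 1564 and 1221 and from 1447 and 1012 to 1023 and 1321. Quantile normalization gave 840 higher and 1136 lower genes in SN vs UN, against 606 and 1431. With a pseudocount of 0.1, 2854 genes instead of 1412 were higher in SH vs SN. Depth is unknown, and values below 1 TPM, Kdr above all, may rest on few reads.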
